A study of Equus caballus with 6 samples.

Results

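The receptors described here bind hormones of the pituitary and the hypothalamus: LHCGR, the receptor of luteinizing hormone (LH), FSHR, that of follicle-stimulating hormone (FSH), GNRHR, that of gonadotropin-releasing hormone (GnRH), PRLR for prolactin, GHR for growth hormone, OXTR for oxytocin and AVPR1A for vasopressin. They were read in the testis of stallions on human CodeLink arrays. Their probes were taken as the spots whose gene annotation gives exactly 1 of the 7 symbols. This found 10 probes of 53423 gene probes, for 6 of the 7 receptors and of 18278 genes with such a probe: 4 for PRLR, 2 for AVPR1A and 1 each for LHCGR, FSHR, GNRHR and GHR. No probe carries the symbol OXTR, and this receptor was not analysed here.

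Testicular parenchyma came from 6 adult horses (Equus caballus), all held in the clinic for 10 days before treatment. In the dexamethasone group, 3 stallions received 0.1 mg/kg of this synthetic glucocorticoid intravenously, and the 3 controls received saline in the same volume. Testes were taken 12 h after the injection and the RNA of each stallion was read on 1 array, so each group has n = 3. The tissue was not sorted, so fewer cells of a type and less RNA per cell cannot be told apart.

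LH reaches the testis from the pituitary and acts on LHCGR of Leydig cells, which answer through Gs, adenylate cyclase and cAMP with testosterone synthesis. FSH acts on FSHR of Sertoli cells, the somatic cells that nurse the germ cells, through the same cAMP route. GNRHR is known above all from the gonadotropes of the pituitary, where it drives LH and FSH release through Gq, although rat Leydig cells carry it too. PRLR and GHR are cytokine receptors that signal through JAK2 and STAT5, and prolactin raises LH receptor number on rodent Leydig cells. AVPR1A and OXTR couple to Gq and are known for smooth muscle contraction, and AVPR1A is also found on rat Leydig cells.

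Between 22690 and 25537 gene probes were above background per array, which is 42.5% to 47.8%. The labelled tissue was checked with lists of marker genes. Germ cell markers were above background on all 6 arrays for 7 of the 11 genes with a probe, among them DAZL, AKAP4, TNP2, SYCP1 and LDHC, while DDX4, PGK2, PRM2 and TNP1 were above it on none. The same held for 4 of 10 Leydig cell genes and 5 of 12 Sertoli cell genes. HSD11B1 and NR5A1 of the Leydig list and KITLG and SOX9 of the Sertoli list were above background on 0 arrays. Of the 6 duct epithelial genes with a probe, EPCAM, KRT8, KRT18 and KRT19 were above it on 0 arrays and PAX2 and PAX8 on all 6. Of the 4 pituitary genes with a probe, POU1F1 and PITX1 were above it on 0 arrays and POMC and TBX19 on all 6. A human probe may match its horse transcript poorly, so a dim spot does not show low expression.

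The receptors differed widely in how well they were read. Of the 60 receptor spots, 44 were above background, and none was missing or carried a flag that removed it. On all 6 arrays 6 probes were above background: the probes of LHCGR and FSHR, 3 of the 4 PRLR probes and 1 of the 2 AVPR1A probes. GNRHR was above it on 4 arrays, the second AVPR1A probe on 3 and GHR on 1. The fourth PRLR probe was above it on none. Brightness depends on the probe as much as on the transcript, so the order of the probes does not rank the receptors by RNA amount.

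**Figure D1:**
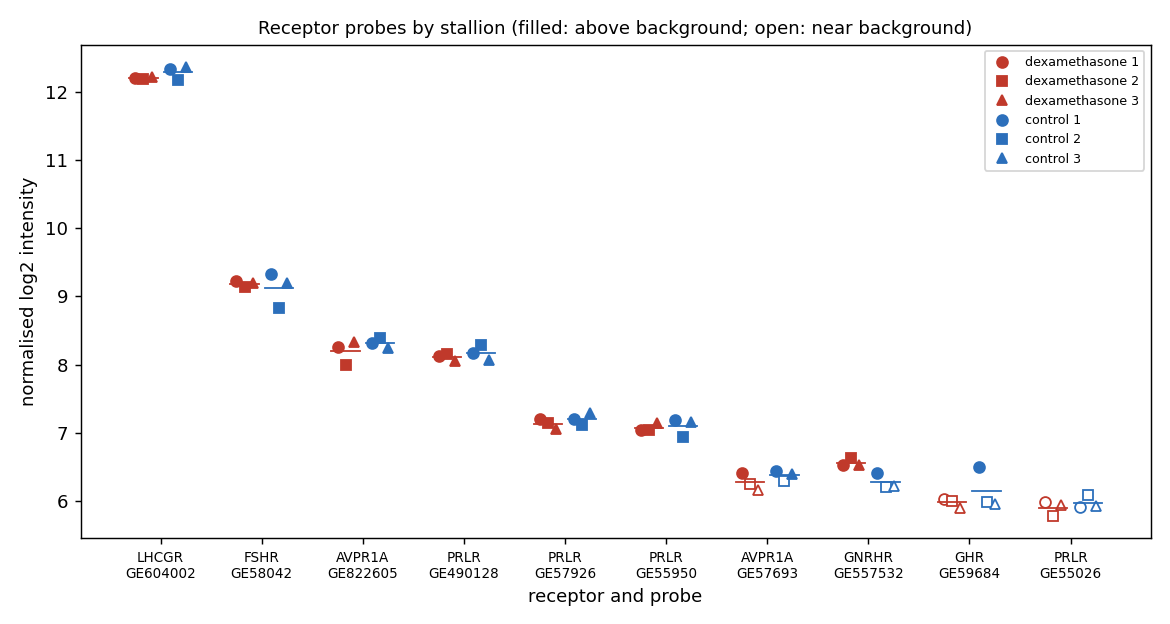
Normalised log2 intensity (y axis) of the 10 receptor probes (x axis, symbol and probe name) in each of the 6 stallions, with a bar at each group mean. Filled symbols are spots above background and open symbols are spots near it. LHCGR lies between 12.17 and 12.36 and FSHR between 8.83 and 9.32, while the open symbols gather at the dim end on the right.

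Between groups, no receptor probe passed limma's test over all 24590 tested probes. The test took probes above background on 3 or more arrays, as 8 of the 10 were. After Benjamini-Hochberg adjustment 0 of these 8 passed an adjusted p of 0.05, against 0.00407% of all tested probes. At an unadjusted limma p under 0.05 there was 1 of 8, GNRHR, against 3.29% of all tested probes (1.47% higher and 1.81% lower). GNRHR was also the 1 probe of 8 whose groups did not overlap, against 9.27% of all tested probes. It would have met the requirement of 3 arrays through the dexamethasone group alone, where it was higher, so nothing is read from these counts. Among the 6 receptor probes above background on all 6 arrays, the number at an unadjusted limma p under 0.05 was 0. Of the 8, 6 were lower and 2 higher in the dexamethasone stallions, with a median log2 difference of -0.07. All tested probes had a median of -0.01 and 47.5% were higher. The 6 lower were 1 probe of LHCGR, 3 of PRLR and 2 of AVPR1A, and probes of 1 gene are not replicates. For 1 probe in 3 and 3 animals, the smallest two-sided p that exact permutation can give is 0.1.

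**Figure D2:**
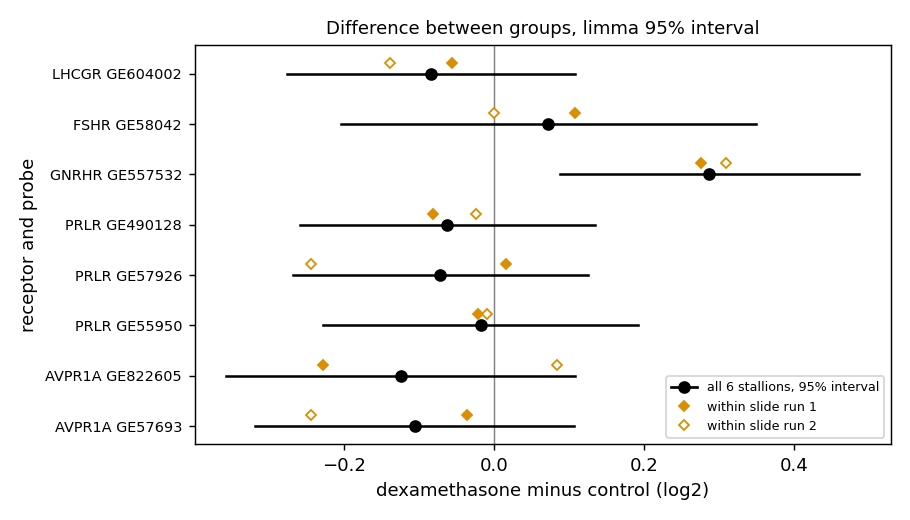
Dexamethasone minus control in log2 units (x axis) for the 8 tested receptor probes (y axis). Black points and lines are limma's estimate and 95% interval over 6 stallions, and diamonds are the differences within each run of slide numbers. The second run holds only dexamethasone replicate 3 and control replicate 3. The interval of GNRHR, from 0.09 to 0.49, lies above 0, and the other 7 include 0.

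LHCGR, the gate of LH action on Leydig cells, was read by probe GE604002, annotated to the sequence tag BX097897. It was among the brightest spots on every array, at percentiles 99.6 to 99.7 of all gene probes, at 69.9 to 113 times the local background. Normalised log2 values were 12.21, 12.18 and 12.22 in the dexamethasone stallions and 12.33, 12.17 and 12.36 in the controls. The treated stallions lay close to each other and inside the spread of the controls, whose replicate 2 was the lowest of all 6.

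The group means of LHCGR were 12.20 ± 0.02 and 12.29 ± 0.11 (SD, n = 3 each). The log2 difference was -0.08 ± 0.09 (SE), a ratio of 0.943 with a 95% interval from 0.825 to 1.08 (limma adjusted p = 0.999; exact two-sided permutation p = 0.4). With plain background subtraction in place of the offset of 50 units the difference was -0.085. The interval leaves room for a decrease of LHCGR signal to 0.825 of control, or an increase to 1.08 of it, on the normalised scale. Within the runs of slides, inferred from gaps in the slide numbers, the differences were -0.06 and -0.14. The second run holds only dexamethasone replicate 3 and control replicate 3.

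The values before scaling looked different. Net LHCGR intensity, the spot mean minus its local background, was 4429, 4343 and 4455 units in the dexamethasone stallions and 6040, 4802 and 4869 in the controls, so that every treated array lay below every control. Of all tested probes, 14.9% were lower in every dexamethasone array on this unscaled measure and 0.512% were higher in every one. After the authors' scaling the LHCGR values were 155, 179 and 186 against 196, 176 and 196, and the groups overlapped. The LHCGR difference was -0.20 on the log2 scale with median scaling, which moved the median of all tested probes to -0.08. Its unadjusted p was 0.0766 at the lowest over the 17 other fits.

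Of the 11 tested probes of Leydig cell markers, 4 were higher and 7 lower in the dexamethasone stallions, with a median log2 difference of -0.12. Of all tested probes, 47.5% were higher. At an unadjusted limma p under 0.05, 3 of the 11 were lower and 0 higher, against 1.81% and 1.47% of all tested probes. The 3 were both INSL3 probes, which read 1 gene, and GSTA3. The marker list was fixed with earlier results of these data known, so nothing is read from this count. INSL3, the peptide hormone of these cells, differed by -1.21 ± 0.23 on its brighter probe and by -0.52 ± 0.22 on the other (SE; limma adjusted p = 0.999 each), the latter being -0.23 without dexamethasone replicate 1. GSTA3 differed by -0.66 ± 0.16, and PTGDS by -0.54 ± 0.24 on its brighter probe and -0.06 ± 0.09 on its dimmer one (SE). HSD3B2 differed by -0.17 ± 0.11 (SE), with no value for dexamethasone replicate 1. STAR, which carries cholesterol into mitochondria, differed by 0.19 ± 0.10, -0.12 ± 0.09 and 0.01 ± 0.11 on its 3 probes (SE). The steroidogenic enzymes CYP11A1 and CYP17A1 differed by 0.08 ± 0.11 and 0.00 ± 0.11, with 1 control value missing for the former and 1 value per group for the latter (SE). The summed scaled intensity of the 10 Leydig markers ran from 196 to 504 in the dexamethasone stallions and from 446 to 536 in the controls. Between 77.9% and 88.3% of each sum came from 1 gene, PTGDS, and the lowest sum was that of dexamethasone replicate 1. Without PTGDS, left out after its share was seen, the sums were 39.0 to 58.8 and 83.8 to 98.6. INSL3 was the brightest tested gene left in them, at log2 means of 9.34 in the dexamethasone stallions and 10.54 in the controls. The INSL3 share of these sums was not computed, and GSTA3 stayed in them as well. Nothing is read from their gap between the groups. The part of Leydig cell content in the LHCGR values was not tested.

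FSHR, the receptor of FSH on Sertoli cells, was read by probe GE58042 at percentiles 89.6 to 92.5, at 10.3 to 15.6 times the local background. Log2 values were 9.23, 9.14 and 9.20 in the dexamethasone stallions and 9.32, 8.83 and 9.20 in the controls. The controls spanned the whole range, with replicate 1 the highest and replicate 2 the lowest of the 6. The means were 9.19 ± 0.05 and 9.12 ± 0.26 (SD, n = 3 each), a difference of 0.07 ± 0.12 (SE; limma adjusted p = 0.999), or a ratio of 1.05 with an interval from 0.867 to 1.27.

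The sign of the FSHR difference rested on control replicate 2, without which it was -0.07, and it was -0.08 with median scaling. Scaled FSHR intensity was 19.5 ± 1.52 against 19.9 ± 4.10 (SD, n = 3 each). Summed over 12 Sertoli cell genes, scaled intensity ran from 72.9 to 81.7 in the dexamethasone stallions and from 76.9 to 80.6 in the controls. Of 10 tested probes in this list, 1 was higher and 0 lower at an unadjusted limma p under 0.05. Of all tested probes, 1.47% and 1.81% were so. It was the brighter CLDN11 probe, at 0.48 ± 0.13 (log2, SE; limma adjusted p = 0.999), with 2 control values. The dimmer CLDN11 probe differed by 0.04 ± 0.12 (SE), with 2 values per group. The list was fixed with earlier results of these data known, so nothing is read from this count. In the horse gene table LHCGR and FSHR are close neighbours on the same chromosome, with 0 protein-coding genes between them.

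**Figure D3:**
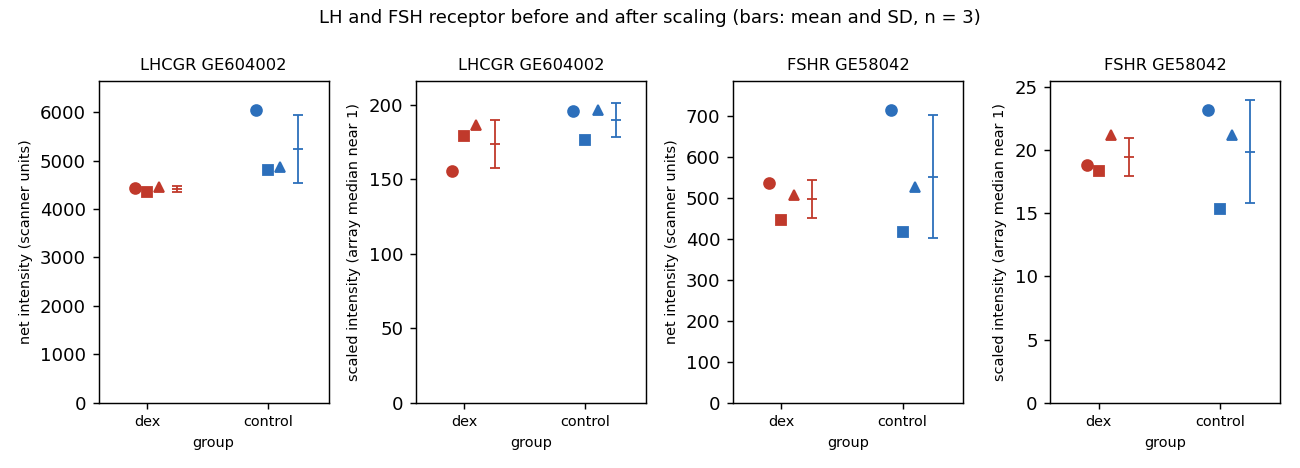
LHCGR and FSHR intensity (y axis, from 0) in each stallion by group (x axis), as net scanner units and after the authors' scaling, with mean and SD (n = 3). The 3 dexamethasone arrays lie below the 3 controls for net LHCGR, at 4343 to 4455 against 4802 to 6040 units, and overlap with them in the other panels.

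PRLR, through which prolactin acts on Leydig and germ cells, was the receptor with the most probes. Probe GE490128 was the brightest, at percentiles 83.2 to 85.3, with log2 values of 8.13, 8.16 and 8.05 in the dexamethasone stallions and 8.17, 8.28 and 8.07 in the controls. Its groups overlapped, and the difference was -0.06 ± 0.09 (SE), a ratio of 0.958 with an interval from 0.835 to 1.10. Probes GE57926 and GE55950 were dimmer, at percentiles 67.6 to 74.2, and differed by -0.07 ± 0.09 and -0.02 ± 0.09 (log2, SE).

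The PRLR probes thus gave similar small differences, with intervals that all include 0 and limma adjusted p = 0.999 each. They did not follow each other from stallion to stallion. Over the 6 arrays the brightest PRLR probe had a Pearson correlation of -0.15 with GE57926 and -0.74 with GE55950, and those 2 had 0.32 with each other. These correlations are given as a description over values of each probe that span at most 0.245 on the log2 scale, on shared arrays. For GE57926 the 2 runs of slide numbers gave 0.02 and -0.25. The fourth probe, GE55026, stayed at 1.03 to 1.31 times its local background and was not tested.

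GHR, the growth hormone receptor, was above background in a single stallion. Spot means of probe GE59684 were 59.6, 56.7 and 56.5 units in the dexamethasone stallions and 96.7, 61.7 and 58.7 in the controls, over local backgrounds of 46 to 53. Control replicate 1 stood apart and the other 5 lay close to background. The probe was not tested. The mean of the controls did not exceed the lowest level that counted as above background on the treated arrays, so no ratio is given.

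GNRHR was the receptor with the largest difference, at a dim probe. Spot means of probe GE557532 were 87.8, 84.5 and 80.4 units in the dexamethasone stallions and 86.0, 65.8 and 70.6 in the controls, over local backgrounds of 44 to 50. Detection above background held for all 3 treated animals but for 1 control. Control replicate 1 reached the level of the treated stallions before normalisation, with a net intensity of 37.0 units against 42.8, 40.5 and 35.4.

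Normalised GNRHR values were 6.53, 6.63 and 6.54 in the dexamethasone stallions and 6.41, 6.20 and 6.23 in the controls. The groups did not overlap on this scale. The means were 6.57 ± 0.05 and 6.28 ± 0.11 (SD, n = 3 each), and the log2 difference was 0.29 ± 0.09 (SE, limma adjusted p = 0.999). The unadjusted limma p was 0.00970, or 0.0113 with no filter on dim probes. The probe met the filter through the treated group, where it was higher, so nothing is read from this unadjusted p. The exact two-sided permutation p was 0.1, the smallest this design allows. The runs of slides taken alone gave 0.28 and 0.31, the latter from dexamethasone replicate 3 against control replicate 3 only. Leaving out single arrays gave 0.25 to 0.34.

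How large the GNRHR difference looks depends on the background correction. It was 0.48 with a normexp offset of 16, 0.76 with the authors' scaled intensity and 0.78 with plain subtraction. Scaled intensities averaged 1.55 ± 0.103 in the dexamethasone stallions and 0.931 ± 0.235 in the controls (SD, n = 3 each), where 2 of the 3 control spots were near background, so no ratio is given. Unadjusted limma p was below 0.05 in all 16 other fits that tested the probe, from 0.00308 to 0.0389, and adjusted p was never below 0.659. These fits reuse the same stallions and the same probe, so their number adds no further support. Under a filter of all 6 arrays the probe was not tested.

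Control probes were grouped by shared starts of their names into 3 sets, after their values were seen. A set of 30 differed by 0.575 (dexamethasone minus control, log2 of scaled intensity), at 3.66, 3.92 and 4.43 against 2.67, 3.47 and 4.14, and the groups overlapped (two-sided exact permutation p = 0.4). The other sets, of 32 probes each, differed by 0.162 and 0.143 (p = 0.4 and 0.2 by the same exact test). The part of these shifts in the GNRHR values was not tested.

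**Figure D4:**
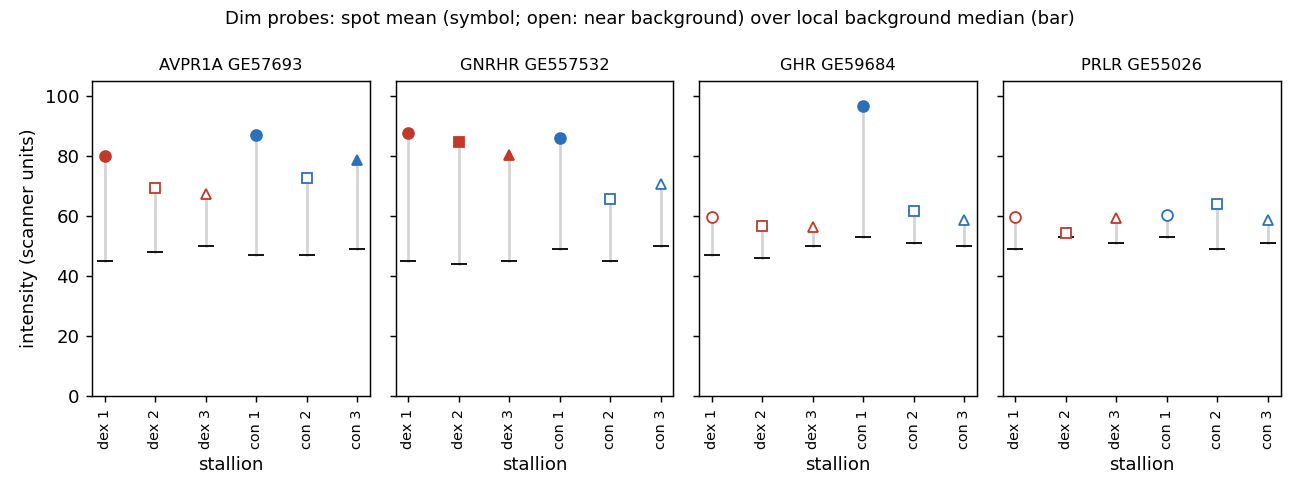
Spot mean (symbols, filled above background and open near it) and local background median (black bars) in scanner units (y axis) for the 4 probes not above background on every array, by stallion (x axis). GNRHR spots are filled in the 3 dexamethasone stallions and in control replicate 1, and GHR is filled only in control replicate 1, at 96.7 units.

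AVPR1A, the vasopressin receptor of smooth muscle, was read by a bright and a dim probe. The bright one, GE822605, was at percentiles 82.6 to 86.2, with log2 values of 8.26, 7.99 and 8.33 in the dexamethasone stallions and 8.32, 8.39 and 8.24 in the controls. Dexamethasone replicate 2 was the lowest, and the groups overlapped. The difference was -0.12 ± 0.10 (SE), a ratio of 0.917 with an interval from 0.781 to 1.08, and -0.02 without dexamethasone replicate 2. The 2 runs of slide numbers gave -0.23 and 0.08. The dim probe, GE57693, detected above background in 1 treated stallion and 2 controls, differed by -0.11 ± 0.10, or -0.33 with plain background subtraction. Neither passed (limma adjusted p = 0.999 for each).

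The other genes of these hormone systems, from lists fixed with earlier results of the data known, were followed from the ligands to the signalling steps inside the cell. Their 5 lists held 76 tested probes, of which 0 passed limma's adjusted p and 5 had an unadjusted p under 0.05. Of all tested probes, 3.29% had such an unadjusted limma p (1.47% higher and 1.81% lower). Without control replicate 1 that number was 1, and without control replicate 2 or dexamethasone replicate 2 it was 3. GNAS, the receptor kinases, CISH, STAT5B, JAK2 and STAT5A were picked for their roles after values were seen.

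Among hormones and their subunits, 12 probes of 9 genes were tested, 2 higher and 0 lower at an unadjusted p under 0.05, with a median log2 difference of 0.02. FST, follistatin, which binds activin and so limits FSH release, differed by 0.30 ± 0.11, and its second probe by 0.18 ± 0.15 (SE). FST means on the first probe were 6.84 ± 0.13 in the dexamethasone stallions and 6.54 ± 0.16 in the controls (SD, n = 3 each), and the groups overlapped. That probe was above background in 3 treated stallions and 2 controls. It would have met the filter through the treated group alone, where it was higher, so nothing is read from its place in the count. The FST difference was 0.63 with plain background subtraction. AVP, the vasopressin precursor, differed by 0.21 ± 0.09 (SE), or 0.08 with median scaling. Its groups did not overlap, as was so for 9.27% of all tested probes. FSHB, the FSH beta subunit, differed by 0.15 ± 0.09 (SE). LHB, the LH beta subunit, differed by 0.01 ± 0.08, GNRH1 by -0.05 ± 0.10 and PRL by 0.03 ± 0.09 (SE). INHA, the inhibin alpha subunit of Sertoli cells, differed by -0.21 ± 0.23 (SE). CGA, the alpha subunit shared by LH and FSH, and OXT were above background on 0 arrays. LHB, FSHB and PRL are hormones of the pituitary, and what their probes bind in testis RNA was not tested.

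Of the other receptors for pituitary and hypothalamic hormones, 19 probes of 18 genes were tested, 1 higher and 0 lower, with a median of 0.07. TSHR, the thyrotropin receptor and a close relative of LHCGR and FSHR, differed by 0.24 ± 0.11 on its brighter probe, or 0.09 with median scaling, and by -0.18 ± 0.12 on its dimmer one (SE). SSTR1, a somatostatin receptor, differed by 0.23 ± 0.12 and MC2R, the corticotropin receptor, by 0.17 ± 0.09 (SE). Of the 19 probes 14 were higher and 5 lower, none of them past the adjusted test, where 47.5% of all tested probes were higher.

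Of the G proteins and adenylate cyclases that LHCGR and FSHR signal through, 21 probes of 17 genes were tested, 0 higher and 1 lower, with a median of -0.04. GNAS, the Gs alpha subunit, differed by -0.07 ± 0.11 (SE) at a log2 level of 13.34 against 13.41. By the rule on smallest p, GNAI2 differed by 0.12 ± 0.08, ADCY4 by 0.17 ± 0.12 and GNG5 by 0.68 ± 0.46 (SE), or -0.07 ± 0.09 on the second GNG5 probe. The larger GNG5 value rested on dexamethasone replicate 2, at 12.96 against 10.75 to 10.92 on the other 5 arrays, and was -0.03 without it. The lower probe was the dimmer one of GNG2, named here after its value was seen. Its spots passed background in 0 treated stallions and 3 controls, at 6.12 against 6.43 (limma adjusted p = 0.999). It was tested through the control group, where it was higher, so nothing is read from its place in the count. With plain background subtraction its difference was -1.04. The brighter GNG2 probe differed by -0.10 ± 0.10 (SE).

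In the list on receptor desensitisation and turnover, 11 probes of 9 genes were tested, 0 higher and 1 lower, with a median of 0.00. The lower one was MVK, mevalonate kinase, which in the rat ovary also binds LH receptor mRNA and speeds its loss. Its log2 values were 8.87, 8.74 and 8.51 in the dexamethasone stallions and 9.17, 8.98 and 8.98 in the controls. The groups did not overlap, as was so for 9.27% of all tested probes. The difference was -0.34 ± 0.11 (SE; limma adjusted p = 0.999), from -0.43 to -0.24 without each array in turn. RGS3 differed by 0.11 ± 0.12, with no value for dexamethasone replicate 1, and PTGFRN by -0.07 ± 0.09, and the receptor kinases GRK2, GRK3 and GRK6 by 0.02 ± 0.09, 0.04 ± 0.08 and -0.05 ± 0.13 (SE).

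In the JAK and STAT pathway of PRLR and GHR, 13 probes of 11 genes were tested and 0 had an unadjusted limma p under 0.05, with a median of -0.02. SOCS2, a feedback inhibitor of growth hormone signalling, differed by 0.07 ± 0.09 on its brighter probe and 0.26 ± 0.13 on its dimmer one (SE). SOCS1 differed by 0.10 ± 0.12, FYN by -0.05 ± 0.08, STAT5B by 0.02 ± 0.09 and CISH by -0.04 ± 0.10 (SE). JAK2 and STAT5A, the core of this route, were above background on 0 arrays.

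**Figure D5:**
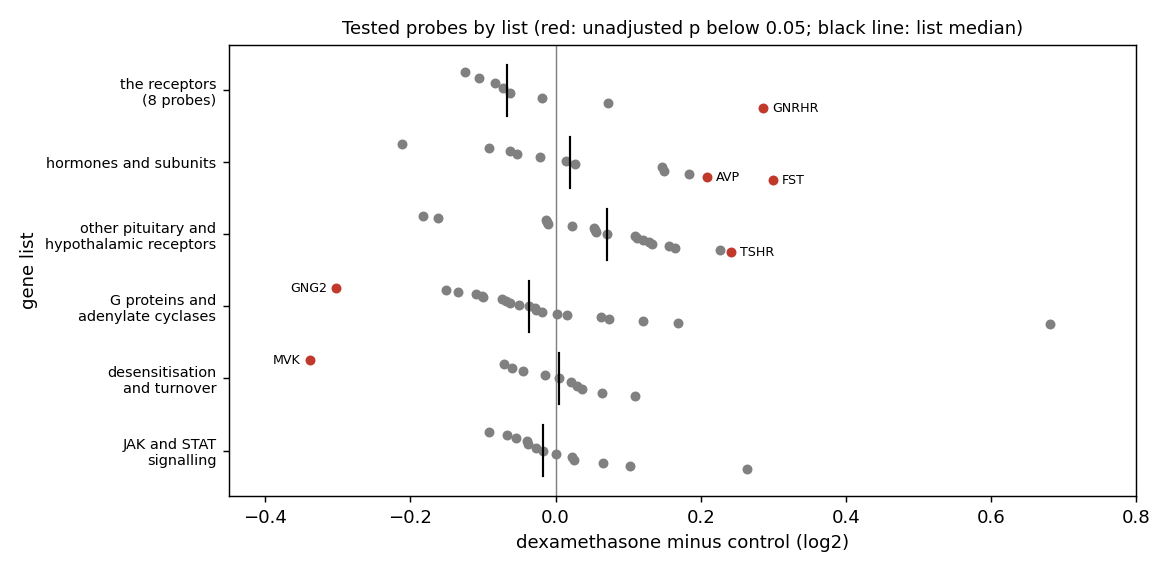
Dexamethasone minus control in log2 units (x axis) for every tested probe of the receptors and of 5 related lists (y axis). Red points have an unadjusted limma p below 0.05 and carry their gene symbol, and black lines are list medians. The medians lie between -0.07 and 0.07, with 1 red receptor probe and 5 red probes in the other lists.

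For each receptor probe above background on all 6 arrays, the 3 genes whose values followed it most closely over the arrays were picked by Pearson correlation among 11008 to 11010 tested probes, as a description over n = 6. For LHCGR these were TLR5, USP32P1 and LOC105378183 (0.993, 0.993 and 0.978), and for FSHR B3GNT3, SIGLEC11 and MSL3 (0.984, 0.984 and 0.983). For PRLR they were GKN1, MORC4 and ARSK by GE490128, SPRR3, CADPS and SCN10A by GE57926, and TMEM105, HLX and IGSF8 by GE55950. For AVPR1A they were SLC38A3, UHRF2 and MIB2 (0.993, 0.991 and 0.989). The 3 PRLR probes named no gene in common. The points share arrays and span small log2 ranges. Between 12 and 56 candidates had a correlation above 0.95 with each probe.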

How the data were processed

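Each stallion's total RNA was labelled by the CodeLink manual cRNA protocol and read as Alexa-647, per the labels. The authors deposited, for each spot, a mean intensity, a median local background, their difference, and a scaled intensity, from the values that difference divided by 1 constant per array. A signal strength is deposited as well, a score that sets the spot mean against its noise level. Scanner software is not given in the sources used here.

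Spots flagged L count as near background, those flagged M, C, I or P as missing. Intensities were corrected with normexp (offset 50), quantile normalised over probes printed once, taken to log2 and fitted with limma 3.58.1 (lmFit, eBayes, two-sided, no covariates, R 4.3.3). A probe needed 3 arrays above background and 2 values per group. Benjamini-Hochberg adjustment ran over all 24590. Figures used matplotlib 3.10.9 in Python 3.11.15. The fit was tested on simulated data.

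Gene names come from the platform annotation. Receptors and lists were chosen with earlier results of these data known. Named genes were every receptor probe, per list the 3 genes with the smallest p on their brightest probe, MVK, tested ligands, tissue markers, and the 3 genes most alike in pattern. Nothing says how RNA was sampled within a testis. The number of arrays limits precision. Replicate numbers follow sample order and pair no stallions. Slide numbers fall into 2 runs, inferred from gaps in the numbers and stated by no label. Each holds both groups, the second only dexamethasone replicate 3 and control replicate 3.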

Additional observations from a re-analysis of the deposited data

How the results depend on the processing

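All receptor values were recomputed under up to 19 alternatives. Of 147 such values, 10 changed sign: 4 of FSHR, 4 of PRLR GE55950 and 1 each of PRLR GE57926 and AVPR1A GE822605, with 0 of LHCGR and 0 of GNRHR. No receptor probe passed adjusted p in any of the fits. Probes past adjusted p over all tested numbered 1, with 0 under plain subtraction, under the filter of all 6 arrays and under eBayes with trend and robust settings. Leaving out single arrays gave 0 to 1 (0 without control replicate 1 or 3). Receptor probes past unadjusted p numbered 1, and 0 with the filter of all 6 arrays, which drops the GNRHR probe, and leaving out single arrays gave 1. Probes of the related lists past it numbered 5, and 3 under each of plain subtraction, normexp offset 16, the authors' values, the filter of all 6 arrays, and eBayes with trend and robust settings. Leaving out single arrays gave 1 to 6 (1 without control replicate 1, 3 without dexamethasone replicate 2 or control replicate 2). Blocking on slide run gave 5. Of all probes past unadjusted p, 44.8% were higher, against 6.17% with median scaling and 26.0% with the authors' values. Receptor probes above background on 3 or more arrays numbered 8, or 6 with a signal strength of at least 1.5. Ranked among probes with 1 symbol, mean percentiles were 99.5 for LHCGR, 83.4 and 44.3 for AVPR1A and 82.3, 69.0 and 67.4 for PRLR, against 99.6, 85.1, 49.9, 84.1, 72.0 and 70.5 among all. Of the 18 most similar genes, 1 to 7 stayed among the closest 3 without each array in turn, and 8 had a Spearman correlation of 1. The cause of these changes was not tested. No paired analysis was possible because the labels give the groups no shared numbers.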

Other observations

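The 6 receptor probes that were lower after dexamethasone differed by -0.02 to -0.12 (log2), and each 95% interval of limma includes 0. With median scaling the median of all tested probes was -0.08, and with the authors' values it was -0.07.

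The receptors of this paragraph were picked after their values were seen. RXFP2, the receptor of INSL3, which was listed with the other hormone receptors, was above background on all 6 arrays and differed by 0.11 ± 0.11 (log2, SE), at 7.32 against 7.21. GHSR, the ghrelin receptor, and GHRHR, the receptor of growth hormone-releasing hormone, had mean brightness percentiles of 97.8 and 96.7, and differed by -0.01 ± 0.08 and 0.06 ± 0.10 (log2, SE).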
